A study of Arabidopsis thaliana with 4 samples.

Results

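The genes described here encode proteins that fold, modify, translocate and clear proteins of the endoplasmic reticulum (ER), the compartment where secreted and membrane proteins are made. They were taken from a list of 56 Arabidopsis loci covering ER chaperones, disulfide isomerases, the translocon, signal peptidase, glycosylation and ER degradation. A locus was measured where the platform annotation paired a probe set with that locus alone, and the brightest probe set stood for it. That gave 19 of the 56 loci, out of 13286 loci measured in all, and 18 of the 19 were bright enough to be tested, against 7182 of all loci. Transcript levels came from 4 Affymetrix arrays of whole seedlings 2 weeks old, as log2 signals. The control group was 2 samples of wild-type Col-0. The other group was 2 samples of T3 transgenic plants in the Col-0 ecotype that overexpress RECA1 (AT1G79050), a chloroplast-targeted homologue of the bacterial recombinase RecA, called RECA1-OE below. All seeds were stratified for 4 days and grown on plates at 23 °C in long days (16 h light, 8 h dark), with no treatment. The labels give neither the promoter that drives the transgene nor the number of independent lines, and they do not say whether the biological replicates of a group were raised separately, so the p-values measure only the spread between these samples.

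A protein bound for secretion is recognised by the signal recognition particle as it leaves the ribosome, and threads into the ER through the SEC61 channel. Signal peptidase then removes its targeting signal, oligosaccharyltransferase attaches a glycan, and chaperones such as the Hsp70 protein BiP with its J-domain partners, calnexin and calreticulin assist folding. Proteins that fail to fold are returned to the cytosol and degraded. When unfolded proteins build up in plants, the kinase and nuclease IRE1 splices the mRNA of the transcription factor bZIP60, which then raises genes of this machinery, a response called the unfolded protein response.

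Of the 18 tested genes, 5 rose in RECA1-OE, 0 fell and 13 did not pass limma's test at an adjusted p under 0.05. At an unadjusted p under 0.05, 8 were higher and 0 lower. The share of all tested probe sets at that unadjusted threshold was not counted, here or for the lists below. The 5 genes that rose were bZIP60, the J-domain protein gene ERDJ3B, a SEC61 beta gene, a SEC61 alpha gene and a gene of the signal peptidase subunit SEC11, by 1.49-fold to 3.23-fold. The share that rose was 27.8%, where 9.94% of the 13647 probe sets tested rose, 9.97% fell and 19.9% changed in either direction. The list was chosen with earlier results of these data known, so its shares are a description and not a test. The median difference of the 18 genes was 0.36 on the log2 scale, against -0.04 over all tested probe sets, and 17 of the 18 had a higher mean in RECA1-OE, where 46.9% of all tested probe sets did. The RECA1-OE arrays both exceeded the higher Col-0 array for 13 of the 18 genes, or 72.2%, against 29.9% of all tested probe sets. No gene of the list lay wholly below, against 35.1% of all. Before rounding, 13 of the 18 differences exceeded the upper quartile of all tested probe sets, which was 0.27. Because RNA came from whole seedlings, more RNA per cell and more cells of a kind rich in these transcripts cannot be told apart.

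**Figure D1:**
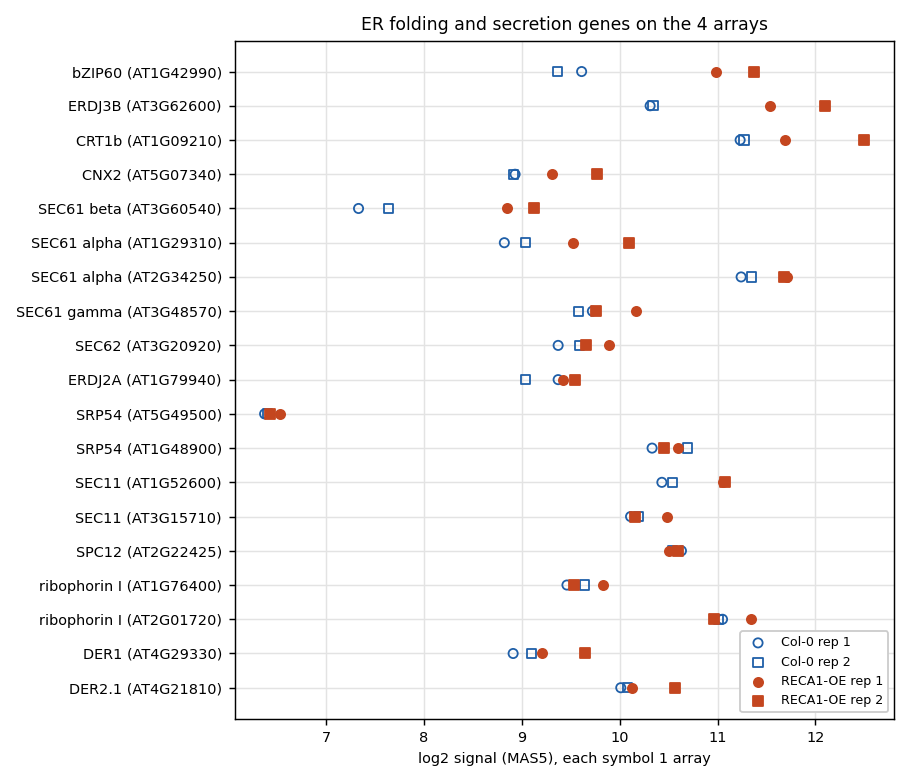
Log2 signal (MAS5, x axis) of the 19 measured genes (y axis, by role) on each array, with open blue symbols for Col-0, filled red symbols for RECA1-OE, circles for replicate 1 and squares for replicate 2. The RECA1-OE symbols of bZIP60, ERDJ3B and SEC61 beta stand well to the right of the Col-0 symbols, and those of the 2 ribophorin I genes, SPC12 and SRP54 gene AT1G48900 are mixed with them.

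Signals of different probe sets depend on their probes, so levels are compared between arrays for 1 gene and never between genes. The median log2 signal was 7.58 to 7.63 on the 4 arrays. Across tested probe sets, which are not independent, the Pearson correlation was 0.966 within Col-0, 0.980 within RECA1-OE, 0.918 and 0.924 between Col-0 replicate 1 and RECA1-OE replicates 1 and 2, and 0.882 and 0.884 for Col-0 replicate 2. Markers of green tissue were bright. The 4 measured of 6 listed, LHCB4.1, RCA, PSAN and PRK, had log2 signals of 13.50 to 14.62. PRK fell by 0.56 ± 0.13 (SE, limma adjusted p = 0.024), a call lost with dim probe sets kept (0.113), without the variance trend (0.051) and on leaving out Col-0 replicate 2 (0.105) or RECA1-OE replicate 1 (0.070), and the other 3 differed by -0.07 to -0.20 without passing. The root-enriched PYK10, measured alone of 3 root markers, read 14.13 and 13.53 in Col-0 and 13.15 and 13.65 in RECA1-OE, so its groups overlapped. Whether the makeup of the seedlings has a part in the results below was not tested. No probe set was paired with RECA1 itself, so its level could not serve as a check of the group labels, and the seed storage markers and a list of 7 salicylate defence genes were not analysed here.

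The largest difference in the list was that of bZIP60 (AT1G42990), the transcription factor of the unfolded protein response whose mRNA IRE1 splices. Its log2 signal was 9.61 and 9.36 on Col-0 replicates 1 and 2, and 10.98 and 11.37 on RECA1-OE replicates 1 and 2. The RECA1-OE arrays were the higher ones, and the gap exceeded the distance between replicates of a group. It rose 3.23-fold (log2 difference 1.69 ± 0.18, SE; limma adjusted p = 0.0019). It was called without each array in turn, with differences of 1.50 to 1.88. Whether the spliced form changed cannot be read from 1 signal per gene.

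Other signalling genes of the unfolded protein response were read from a list of 9, of which 4 were measured and tested. None of the 4 was called by limma, where 19.9% of all tested probe sets were, and 1 had an unadjusted p under 0.05. That one was BZIP28 (AT3G10800), a membrane-held transcription factor that is released by proteolysis in the Golgi under ER stress, which read 9.39 and 9.15 in Col-0 and 9.75 and 9.78 in RECA1-OE. Its groups did not overlap, and the difference was 0.50 ± 0.16 (SE) at a limma adjusted p of 0.066. The related factor BZIP17 differed by 0.33 ± 0.19, and the site-2 protease gene AT4G20310, whose product takes part in releasing such factors, by -0.43 ± 0.28. The protease gene had a RECA1-OE mean of 6.66, under the 6.82 at which the filter was set, and its difference is uncertain in size.

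Among chaperones, ERDJ3B rose and the lectin chaperones lay close to the threshold. ERDJ3B (AT3G62600) encodes a J-domain protein that works with BiP in the ER lumen. It read 10.31 and 10.34 in Col-0 and 11.54 and 12.10 in RECA1-OE. The Col-0 arrays were nearly equal, the RECA1-OE arrays were well above them and RECA1-OE replicate 2 was the highest. The rise was 2.82-fold (log2 difference 1.50 ± 0.20, SE; limma adjusted p = 0.0039), and it was called without each array in turn, with differences of 1.21 to 1.78. ERDJ3B was the one gene measured of 5 listed as partners of Hsp70 and Hsp90. The 3 BiP genes, the Hsp90 gene SHD and the co-chaperone genes ERDJ3A, P58IPK and SDF2 had no probe set of their own in the annotation and were not analysed here.

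Calreticulin and calnexin are lectins that hold glycoproteins in the ER until they fold, and 2 of their 5 listed genes were measured. The calreticulin gene CRT1b (AT1G09210) read 11.23 and 11.27 in Col-0 and 11.69 and 12.50 in RECA1-OE. The RECA1-OE arrays differed from each other by 0.82, about as much as the groups did. Its difference was 0.85 ± 0.25 (SE), 1.80-fold, with a limma adjusted p of 0.053 and a 95% interval of 0.26 to 1.43. The difference was 1.25 without RECA1-OE replicate 1 (adjusted p = 0.022) and 0.44 without RECA1-OE replicate 2 (adjusted p = 0.175), and the call was gained without Col-0 replicate 1 (adjusted p = 0.00084) and without Col-0 replicate 2 (adjusted p = 0.00058), in limma fits whose variance came from the trend over all probe sets. A calnexin gene, AT5G07340, read 8.93 and 8.91 in Col-0 and 9.31 and 9.77 in RECA1-OE, again with RECA1-OE replicate 2 the highest. It differed by 0.62 ± 0.19 (SE), 1.54-fold, with a limma adjusted p of 0.058 and an interval of 0.18 to 1.07. It was called without Col-0 replicate 1 (limma adjusted p = 0.020) and without Col-0 replicate 2 (0.035). Leaving out RECA1-OE replicate 2 gave a difference of 0.39, and leaving out replicate 1 gave 0.85.

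None of the 13 listed disulfide isomerase and ER oxidase genes, which form and reshuffle disulfide bonds, had a probe set of its own in the annotation, and none was analysed here. The same holds for the 2 UDP-sugar transporter genes.

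Of 9 listed translocon genes 6 were measured, all 6 were higher on either RECA1-OE array than on any Col-0 array (29.9% of all tested probe sets), and 2 of them rose (9.94% of all). AT3G60540 encodes a SEC61 beta subunit, a small part of the protein-conducting channel. It read 7.33 and 7.64 in Col-0 and 8.85 and 9.12 in RECA1-OE. The gap between groups was several times the distance between replicates. It rose 2.82-fold, or by 1.49 ± 0.19 (SE), with a limma adjusted p of 0.0033, and was called without each array in turn, with differences of 1.34 to 1.65. Its Col-0 mean of 7.49 was the lowest group mean among the tested genes of the list and lay above the filter, so no gene of the list was tested by virtue of 1 group alone.

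SEC61 alpha forms the pore of the channel and is encoded by several genes, of which both listed ones were measured. AT1G29310 read 8.82 and 9.04 in Col-0 and 9.52 and 10.09 in RECA1-OE. Its groups were apart, with the RECA1-OE arrays spread more widely than the Col-0 arrays. It rose 1.83-fold, or by 0.87 ± 0.22 (SE), with a limma adjusted p of 0.030. Without RECA1-OE replicate 2 the difference was 0.58 and the call was lost (limma adjusted p = 0.142), as it was when dim probe sets were kept (0.067). The paralogue AT2G34250 read 11.24 and 11.35 in Col-0 and 11.71 and 11.68 in RECA1-OE, with both groups tight and apart. Its difference of 0.40 ± 0.14 (SE), 1.32-fold, had a limma adjusted p of 0.079 and an interval of 0.08 to 0.73. Whether the 2 SEC61 alpha genes differ in their response was not tested.

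The remaining 3 translocon genes had smaller differences whose intervals included 0. The SEC61 gamma gene AT3G48570 read 9.72 and 9.58 in Col-0 and 10.17 and 9.76 in RECA1-OE, so that RECA1-OE replicate 2 barely passed the higher Col-0 array. It differed by 0.31 ± 0.18 (SE), with a limma adjusted p of 0.265. A second, dimmer probe set of this locus differed by 0.16 ± 0.21, and its groups overlapped. AT3G20920, for the auxiliary translocation protein SEC62, differed by 0.29 ± 0.17, and ERDJ2A (AT1G79940), the plant counterpart of the yeast translocation factor Sec63, by 0.27 ± 0.17, with limma adjusted p values of 0.266 and 0.299. Another 2 SEC61 gamma loci share their probe sets with each other, so neither could be read alone.

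The signal recognition particle, which brings ribosomes to the channel, was represented by 2 of 5 listed genes, both for its GTPase subunit SRP54. AT1G48900 read 10.33 and 10.69 in Col-0 and 10.60 and 10.45 in RECA1-OE, with both RECA1-OE arrays inside the Col-0 range. It differed by 0.01 ± 0.17 (SE), with a limma adjusted p of 0.966 and an interval of -0.39 to 0.41. AT5G49500 was the one measured gene of the list below the filter, with log2 signals of 6.37 and 6.40 in Col-0 and 6.53 and 6.43 in RECA1-OE, and was not tested.

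Signal peptidase cuts the targeting signal from the incoming chain, and 3 of its 4 listed genes were measured. AT1G52600, for the catalytic subunit SEC11, read 10.43 and 10.54 in Col-0 and 11.05 and 11.08 in RECA1-OE. Both groups were tight and did not overlap. It rose 1.49-fold, or by 0.58 ± 0.14 (SE) at a limma adjusted p of 0.028. Its difference stayed between 0.53 and 0.63 without each array in turn, and the call was lost on leaving out RECA1-OE replicate 1 (limma adjusted p = 0.124) or replicate 2 (0.122). The paralogue AT3G15710 read 10.11 and 10.19 in Col-0 and 10.48 and 10.16 in RECA1-OE, with overlapping groups. It differed by 0.17 ± 0.16 (SE), with a limma adjusted p of 0.492 and an interval of -0.21 to 0.56. AT2G22425, for the accessory subunit SPC12, read 10.63 and 10.54 in Col-0 and 10.50 and 10.60 in RECA1-OE. Its difference of -0.04 ± 0.14 (SE), with an interval of -0.37 to 0.30, was the one negative value in the list.

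**Figure D2:**
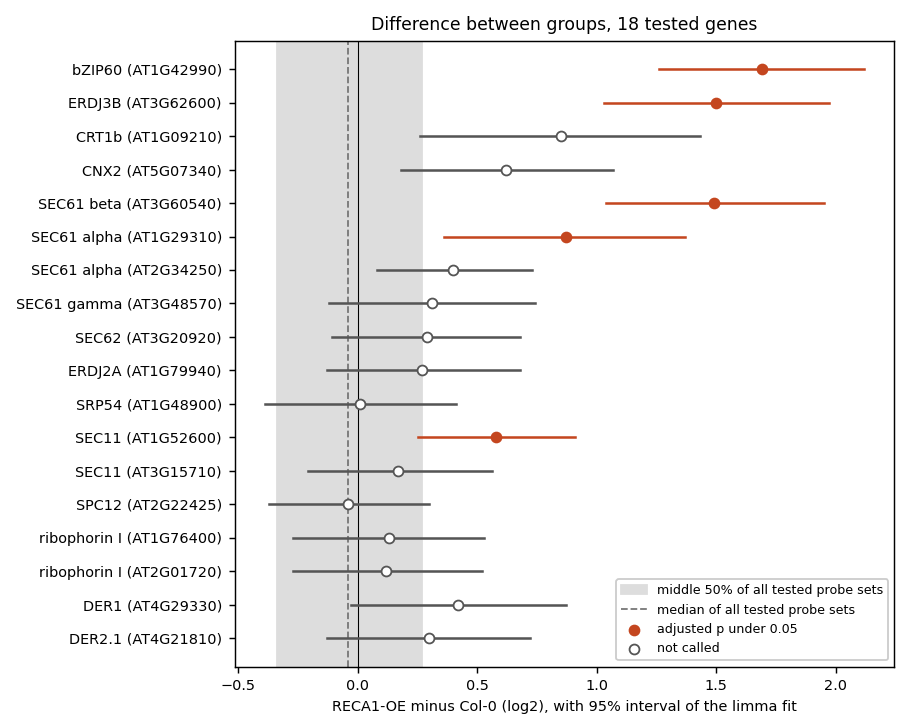
Difference between RECA1-OE and Col-0 (log2, x axis) for the 18 tested genes (y axis, by role), with the 95% interval of the limma fit. Filled red points were called at an adjusted p under 0.05, open points were not, the grey band spans -0.34 to 0.27, the middle 50% of all tested probe sets, and the dashed line is their median of -0.04. The points of 13 of the 18 genes lie on the right edge of the band or beyond it. That of ERDJ2A is on the edge, at a rounded 0.27, and those of the 5 called genes and both lectin chaperones are beyond it.

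Oligosaccharyltransferase attaches the glycan to asparagine residues, and its 2 measured genes of 6 listed both encode ribophorin I. AT1G76400 read 9.46 and 9.64 in Col-0 and 9.83 and 9.53 in RECA1-OE, and AT2G01720 read 11.05 and 11.01 in Col-0 and 11.34 and 10.96 in RECA1-OE. For both, RECA1-OE replicate 1 was the highest of the 4 arrays and RECA1-OE replicate 2 lay among or below the Col-0 arrays. They differed by 0.13 ± 0.17 and 0.12 ± 0.17 (SE), at limma adjusted p values of 0.625 and 0.641 and intervals of -0.27 to 0.53 and -0.27 to 0.52.

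Of the 3 listed ER degradation genes, the 2 that were measured encode derlins, membrane proteins that help move misfolded proteins out of the ER. DER1 (AT4G29330) read 8.91 and 9.10 in Col-0 and 9.20 and 9.64 in RECA1-OE, and DER2.1 (AT4G21810) read 10.01 and 10.08 in Col-0 and 10.12 and 10.56 in RECA1-OE. Their groups did not overlap, although RECA1-OE replicate 1 lay close to the higher Col-0 array in both. DER1 differed by 0.42 ± 0.19 and DER2.1 by 0.30 ± 0.18 (SE), at limma adjusted p values of 0.169 and 0.285. A second probe set of DER1, at log2 signals of 1.07 to 3.92, was too dim to be tested.

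The RECA1-OE arrays did not rank the genes alike. RECA1-OE replicate 2 was the higher of the pair for 11 of the 18 genes, where 50.6% of all tested probe sets were. The excess of replicate 2 over replicate 1 was 0.57 for ERDJ3B, 0.82 for CRT1b, 0.46 for the calnexin gene and 0.57 for AT1G29310. It was 0.44 for each derlin gene, 0.39 for bZIP60 and 0.27 for AT3G60540. The opposite held for both ribophorin I genes at -0.30 and -0.38, SEC61 gamma at -0.41, SEC11 gene AT3G15710 at -0.32 and SEC62 at -0.24. The median excess was 0.11 over the 18 genes and 0.01 over all tested probe sets. How many of all tested probe sets had gaps of such sizes was not counted. Leaving out RECA1-OE replicate 2 reduced the genes that rose from 5 to 3, namely bZIP60, ERDJ3B and SEC61 beta AT3G60540, and 4.79% of all tested probe sets rose in that fit. The Col-0 arrays differed from each other by at most 0.36, in SRP54 gene AT1G48900.

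**Figure D3:**
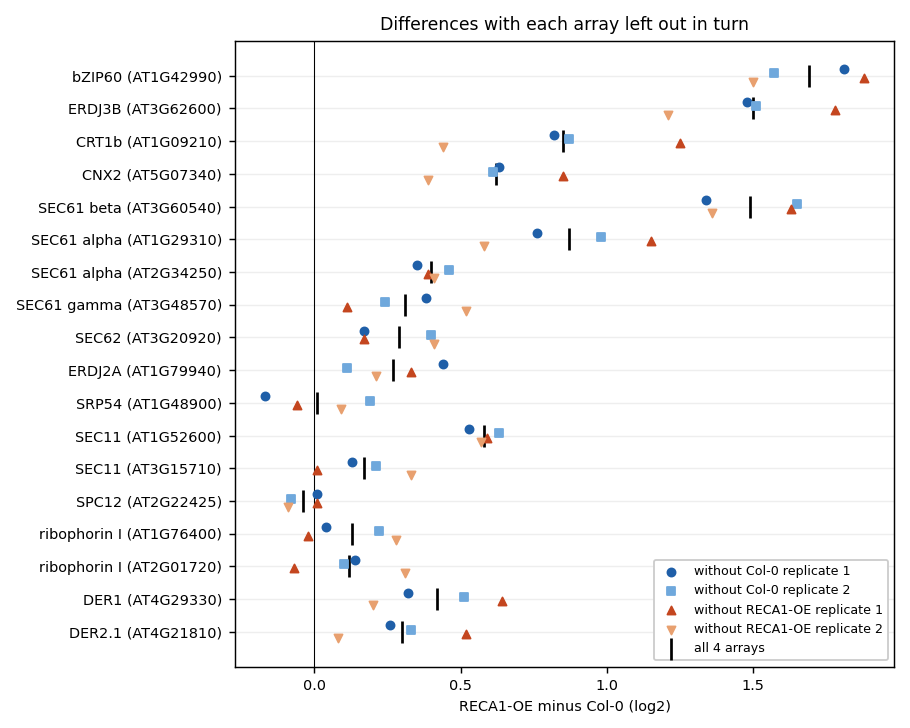
Difference between RECA1-OE and Col-0 (log2, x axis) for the 18 tested genes (y axis) with each array left out in turn (symbols) and with all 4 arrays (vertical bars). bZIP60, ERDJ3B and SEC61 beta stay above 1.2 throughout, CRT1b ranges from 0.44 to 1.25, and SRP54, SPC12 and both ribophorin I genes fall on either side of 0.

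Further genes of ER quality control and glycosylation were read from a list of 29, of which 7 were measured and 6 tested. By limma 2 of the 6 rose, 0 fell and 4 did not pass (3 higher and 0 lower at an unadjusted p under 0.05), where 9.94% of all tested probe sets rose. All 6 were higher on either RECA1-OE array than on any Col-0 array, as were 29.9% of all tested probe sets, and the median difference was 0.55. UBC32 (AT3G17000), a ubiquitin-conjugating enzyme of ER degradation, read 9.40 and 9.14 in Col-0 and 10.16 and 10.03 in RECA1-OE. It rose 1.77-fold, or by 0.82 ± 0.16 (SE), with a limma adjusted p of 0.014, and the call was lost on leaving out RECA1-OE replicate 1 (limma adjusted p = 0.097) or replicate 2 (0.062). AT4G16660, which encodes an Hsp70-type protein of the ER, read 9.13 and 8.96 in Col-0 and 9.66 and 10.44 in RECA1-OE. It rose by 1.00 ± 0.25 (SE), with a limma adjusted p of 0.032, and the difference without RECA1-OE replicate 2 was 0.61 and not called (limma adjusted p = 0.122). GPT (AT2G41490), which makes the first intermediate of the lipid-linked glycan, differed by 0.62 ± 0.21, with a limma adjusted p of 0.074. Like the calreticulin gene, AT4G16660 and GPT were highest on RECA1-OE replicate 2.

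Other genes of protein targeting and translocation, with 12 of 13 listed genes tested, were mixed. By limma 0 rose, also at an unadjusted p under 0.05, 1 fell and 11 did not pass, and the median difference was 0.09. Of all tested probe sets, 9.94% rose and 9.97% fell. AT5G05670, for the beta subunit of the receptor of the signal recognition particle, read 8.48 and 8.61 in Col-0 and 8.01 and 7.66 in RECA1-OE. It fell by 0.71 ± 0.19 (SE), with a limma adjusted p of 0.039, and the call was lost when Col-0 replicate 2 (0.068), RECA1-OE replicate 1 (0.071) or RECA1-OE replicate 2 (0.167) was left out. The accessory signal peptidase subunit gene AT3G05230 differed by 0.52 ± 0.22 and the receptor alpha subunit gene AT4G30600 by 0.37 ± 0.18, with limma adjusted p values of 0.144 and 0.193.

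Vesicle coats carry folded proteins between the ER and the Golgi, and 26 of 44 listed coat and cargo receptor genes were tested. By limma 1 rose (3.85%), 0 fell and 25 did not pass (2 higher and 0 lower at an unadjusted p under 0.05), with a median difference of 0.07. Of all tested probe sets, 9.94% rose and 9.97% fell. RECA1-OE lay wholly above Col-0 in 10 of the 26 (38.5%, against 29.9% of all tested probe sets). It lay wholly below in 7, where 35.1% of all tested probe sets did, and the groups overlapped in 9. AT1G26690, of the p24 family of cargo receptors, read 8.19 and 8.03 in Col-0 and 9.15 and 9.04 in RECA1-OE. It rose by 0.99 ± 0.16 (SE), with a limma adjusted p of 0.0079, and the difference of 0.94 without RECA1-OE replicate 1 was not called (0.062). The SEC23-type gene AT4G01810 differed by 0.48 ± 0.15 and the coatomer gene AT3G15980 by 0.44 ± 0.23, with limma adjusted p values of 0.061 and 0.214.

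Of the 25 listed chaperones of the cytosol, plastid and mitochondrion, 5 were tested. By limma 0 rose, 1 fell and 4 did not pass, where 9.94% of all tested probe sets rose and 9.97% fell. At an unadjusted p under 0.05, 2 were higher and 1 lower. A higher mean in RECA1-OE was found for 2 of the 5, against 46.9% of all tested probe sets. The plastid chaperonin gene Cpn60beta2 (AT3G13470) fell by 0.72 ± 0.19 (SE), with a limma adjusted p of 0.036, and its call was lost on leaving out RECA1-OE replicate 1 (0.197) or replicate 2 (0.061). The cytosolic Hsp70-2 and the Hsp70 and Hsp90 co-chaperone Hop2 differed by 0.55 ± 0.16 and 0.52 ± 0.16, with limma adjusted p values of 0.052 and 0.061. Whether the ER genes differ from these lists was not tested.

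**Figure D4:**
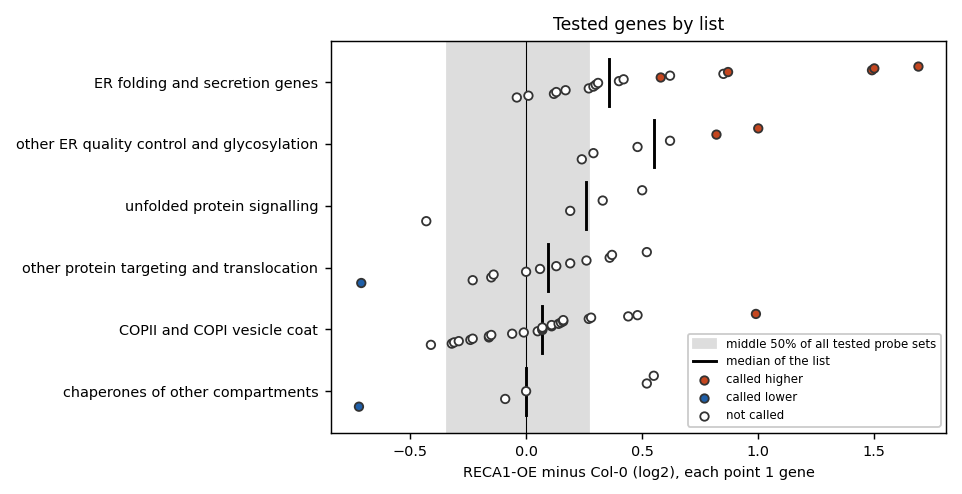
Difference between RECA1-OE and Col-0 (log2, x axis) for the tested genes of each list (rows, 1 point per gene, black bars for medians, grey band for the middle 50% of all tested probe sets). The medians were 0.36 for the ER folding and secretion genes, 0.55 for other ER quality control genes and 0.26 for unfolded protein signalling. They were 0.09 for other targeting genes, 0.07 for vesicle coats and -0.0 for chaperones of other compartments.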

How the data were processed

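Per the labels' protocols, 5 µg of total RNA per sample was amplified from an oligo(dT) primer, labelled with biotin and hybridised to 1 array. The deposited table holds log2 signals of 22746 probe sets on each array; the submitters' processing notes name MAS5 without a version. The base was read from the values, whose linear trimmed means (2% at each end) were 495.3 to 495.8 on the 4 arrays. Depth is not defined for arrays, and their number limits the precision.

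Linear values below 1 were set to 1, and the dimmest 40% of probe sets by mean log2 signal were left out, which kept 13647 at a mean of 6.82 or more. Loci and symbols came from the platform annotation through TAIR10.1 Entrez IDs, by which 13436 of the 13513 probe sets paired with 1 gene matched. Since the values come with no genome build, positions are left out, and no sequences were used here. RECA1-OE and Col-0 were compared with limma 3.58.1 in R 4.3.3 (lmFit and eBayes, mean-variance trend; two-sided tests; Benjamini-Hochberg adjustment over the 13647; values used as normalized by the authors). SE and intervals are limma's, with 2 residual degrees of freedom plus 5.42 from the moderation. On simulated data for this comparison over 13647 probe sets, 50 of 100 changes of 1 on the log2 scale and 99 of 100 changes of 2 were called, together with 7 unchanged probe sets, and 0 were called when nothing was changed.

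The members and all lists were chosen with earlier results of these data known. Named were all called members, up to 2 uncalled ones per role by smallest unadjusted p, and up to 3 genes of each other list, called ones first. The remaining measured members are named as well, to account for each. The main fit did not pair samples by replicate number, whose deviations from the group means had r = -0.06 across probe sets. The labels do not say whether samples with the same number were raised or processed together.

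Alternatives were a replicate block, median centring or quantile normalization of the arrays, a looser and a stricter filter, an offset of 16 on the linear scale, no variance trend, probe sets averaged per locus, an adjusted p under 0.1 and each array left out in turn. A fit with 1 array left in a group assumes that it varies like the other group, and without a Col-0 array the moderation rested wholly on the trend.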

Additional observations from a re-analysis of the deposited data

How the results depend on the processing

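The 5 rises were 5 under quantile normalization, with 60% of probe sets left out, with 16 added to the linear values, without the mean-variance trend and with probe sets averaged per locus, 7 with arrays centred on their medians, 4 when dim probe sets were kept, 8 at an adjusted p under 0.1 and 3 to 7 with 1 array left out. No member was called lower in any of these. With 60% left out the 5 were not the same genes. AT3G60540 was not tested there, and CRT1b was called (limma adjusted p = 0.049). Of all tested probe sets, 9.94% rose in the main fit, 4.55% with dim probe sets kept and 13.6% at an adjusted p under 0.1. That share was 9.17% to 11.2% in the other fits of all 4 arrays. With the replicate number as a block 6 members rose, and 2390 probe sets were called in all in place of 2716. The total was 1787 with dim probe sets kept and 746 to 3906 with 1 array left out. The members' median went from 0.36 to between 0.36 and 0.45 with 1 array left out, and was 0.30 to 0.37 elsewhere. bZIP60, ERDJ3B and AT3G60540 were called wherever they were tested.

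Called lectin chaperones went from 0 to 2 under median centring and at 0.1, to 1 with 60% left out and under the block, and to 0 to 2 with 1 array left out. Called translocon genes went from 2 to 1 with dim probe sets kept and with 60% left out, where AT3G60540 was not tested, and to 1 to 2 with 1 array left out; signal peptidase went from 1 to 0 to 1 there. Other ER quality control calls went from 2 to 1 with dim probe sets kept and 0 to 4 with 1 array left out. The 1 lower targeting gene became 0 with dim probe sets kept, under the block and with 60% left out, where it was not tested, and 0 to 1 with 1 array left out, where 0 to 1 rose. The 1 lower chaperone of other compartments became 0 with dim probe sets kept, without the trend and in some leave-one-out fits (0 to 1); rises there were 1 with 60% left out, 2 at 0.1 and 0 to 1 with 1 array left out. Unfolded protein signalling had 1 rise at 0.1 and 0 to 1 with 1 array left out. Vesicle coat rises were 2 at 0.1 and 0 to 2 with 1 array left out.

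Signs turned only in uncalled genes: AT1G48900 was -0.02 after quantile normalization and -0.17 to 0.19 with 1 array left out. With 1 array left out AT2G22425 ranged from -0.09 to 0.01, AT1G76400 from -0.02 to 0.28 and AT2G01720 from -0.07 to 0.31. The cause of these changes was not tested.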

Other observations

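Of the 37 listed loci with no probe set of their own, 4 share 3 probe sets with another locus of the list, so no gene can be named from them. Of 2 probe sets shared by the same pair of SEC61 gamma loci, one read 11.54 and 11.46 in Col-0 and 12.05 and 12.12 in RECA1-OE, and differed by 0.59 ± 0.14 (SE, limma adjusted p = 0.025). The other read 11.54 and 12.00 in Col-0 and 11.54 and 12.19 in RECA1-OE, with overlapping groups and a difference of 0.09 ± 0.25. The probe set shared by a pair of SRP72 loci of the signal recognition particle differed by 0.03 ± 0.21, with a limma adjusted p of 0.939.

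Among vesicle coat genes below the filter, AT1G18830, which encodes a SEC31-type outer coat protein, was singled out after the values were seen. It read 4.66 and 4.39 in Col-0 and 5.90 and 6.26 in RECA1-OE. When dim probe sets were kept, its difference was 1.55 ± 0.43 (SE), with a limma adjusted p of 0.087, and its size is uncertain at such low signals.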
